A study of Rattus norvegicus with 44 samples.

Results

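The genes described here are 9 genes of the blood-brain barrier (BBB) endothelium, chosen by name in 3 roles. Cldn5, Ocln and Tjp1 belong to the tight junction, Cdh5 and Flt1 mark endothelial cells, and Slco1a4, Abcb1a, Slc2a1 and Mfsd2a are transporters. Of the 9 genes, 8 were found among the 18347 gene identifiers of the expression table, and Abcb1a is not analysed here. Expression was measured by RNA sequencing in the dentate gyrus (DG), a subregion of the hippocampus, from 1 hemisphere of each of 44 male F344 rats, with 1 library per rat. The 10 young rats (YNG) were 6 months old and are listed with vehicle as their treatment in the deposited attributes table. The older rats entered treatment at 12 months of age and were 18 months old at tissue collection, per the methods of the study, while their deposited age label reads 12 months. Of these, 12 received vehicle (AV), 11 received ABT-263 at 12 mg/kg (AA), and 11 received dasatinib at 1.2 mg/kg with quercetin at 12 mg/kg (ADQ). A cycle consisted of 5 days of dosing, 8 cycles came before behavioral testing, and another round followed it. ABT-263 inhibits anti-apoptotic proteins of the BCL2 family, dasatinib inhibits tyrosine kinases, and quercetin is a plant flavonoid. Both treatments are used as senolytics, agents intended to remove senescent cells. The question addressed by the groups is how older age, and treatment at that age, relate to the expression of genes of the barrier.

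The endothelial cells of brain capillaries are sealed to each other by tight junctions, which limit the passage of solutes between cells. They also carry few transport vesicles, and they rely on carriers for the entry of nutrients such as glucose and on efflux pumps for the removal of foreign compounds. Signals from pericytes, astrocytes and the Wnt pathway induce and maintain these properties. In bulk tissue such as the DG, fewer endothelial cells and less RNA per endothelial cell cannot be told apart.

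Promoter sequences are shown for Flt1, Slc2a1, Cldn5 and Slco1a4, because these 4 genes were called higher in AV than in YNG and lower in ADQ than in AV, as was Cdh5. The sequences come from RefSeq (build GRCr8), whereas the reads were aligned to rn6. Each spans 300 bases, from 250 bases before the start of the gene to 50 bases after it, and is written 5′ to 3′ on the strand of the gene. An entry was matched for 7 of the 9 genes, all but Cdh5 and Mfsd2a. Flt1 lies at chr12:12333180-12333479 (plus strand), Slc2a1 at chr5:138002272-138002571 (plus strand), Cldn5 at chr11:95718549-95718848 (minus strand) and Slco1a4 at chr4:176495797-176496096 (minus strand). Capitals mark matches on either strand to 5 short motifs. The core bound by ETS factors is GGAAG, the so-called GC box is GGGCGG, and a box bound by the factor NF-Y is CCAAT. The TATA box was searched as TATAAA, and the cAMP response element as TGACGTCA. In these promoters no match overlapped a match to another motif.
Flt1: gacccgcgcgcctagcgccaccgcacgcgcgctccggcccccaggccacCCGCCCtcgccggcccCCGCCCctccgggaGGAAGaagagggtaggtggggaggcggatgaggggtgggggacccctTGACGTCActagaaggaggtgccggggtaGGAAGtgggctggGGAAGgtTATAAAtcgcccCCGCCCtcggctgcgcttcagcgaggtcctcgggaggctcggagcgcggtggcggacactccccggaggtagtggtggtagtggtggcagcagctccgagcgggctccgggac
Slc2a1: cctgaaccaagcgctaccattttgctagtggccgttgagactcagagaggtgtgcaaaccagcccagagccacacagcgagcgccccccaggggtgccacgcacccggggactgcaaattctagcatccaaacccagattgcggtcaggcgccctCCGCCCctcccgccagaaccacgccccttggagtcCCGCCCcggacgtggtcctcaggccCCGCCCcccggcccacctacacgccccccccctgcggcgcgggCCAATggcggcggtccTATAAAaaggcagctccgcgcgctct
Cldn5: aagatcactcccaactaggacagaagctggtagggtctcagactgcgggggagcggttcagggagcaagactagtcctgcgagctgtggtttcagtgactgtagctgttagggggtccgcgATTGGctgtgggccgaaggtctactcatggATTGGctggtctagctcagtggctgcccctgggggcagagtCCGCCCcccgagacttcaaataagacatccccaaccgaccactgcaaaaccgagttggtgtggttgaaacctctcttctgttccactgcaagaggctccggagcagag
Slco1a4: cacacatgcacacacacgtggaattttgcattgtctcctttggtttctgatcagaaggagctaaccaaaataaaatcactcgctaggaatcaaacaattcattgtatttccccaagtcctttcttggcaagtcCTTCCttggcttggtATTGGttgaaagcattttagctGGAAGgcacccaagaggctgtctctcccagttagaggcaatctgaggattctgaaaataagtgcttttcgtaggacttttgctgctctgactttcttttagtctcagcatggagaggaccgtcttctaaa
The Flt1 promoter held 3 matches to GGAAG, 3 to GGGCGG, 1 to TATAAA and 1 to TGACGTCA, the last of which was found in 1.8% of all 33469 promoters of this length. The Slc2a1 promoter held 3 matches to GGGCGG, 1 to CCAAT and 1 to TATAAA, and the Cldn5 promoter held 1 match to GGGCGG and 2 to CCAAT. The Slco1a4 promoter held 2 matches to GGAAG and 1 to CCAAT. Over all promoters, GGAAG was found in 70.1%, CCAAT in 37.5%, GGGCGG in 33.1% and TATAAA in 14.2%. The share of G and C was 72.7% in Flt1, 68.3% in Slc2a1, 57.7% in Cldn5 and lower in Slco1a4, against a median of 51.7% over all promoters, so the promoters lay on both sides of that median.

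The table holds reads assigned to transcripts and divided by a size factor per library, called normalised values here, and the rows of a gene were added. They summed to between 14297964 and 20579982 per rat. Rats were split by number into 2 series, named series a (older rats up to 4011 and young rats V1 to V6) and series b (older rats from 4031 and young rats V9 to V12), and the labels name no batch. The joining of young to older rat numbers was assumed. All comparisons with YNG within a series, and all series interactions with YNG, rest on it. The older groups are not spread alike over the numbers. In series a the AA rats (3983 to 3996) and the ADQ rats (3994 to 4007) are numbered among the AV rats (3890 to 4011), whereas in series b the AA and ADQ rats are numbered 4031 to 4110 and the AV rats 4566 to 4572, a wider gap than that between the series. Within series b treatment and number run therefore cannot be told apart, and the series interactions with AV share this limit. Series a and b held 6 and 4 YNG rats, 6 and 6 AV rats, 5 and 6 AA rats, and 5 and 6 ADQ rats. Since the members differed between the series within groups, values within each series are given beside the pooled ones. Of 10 endothelial marker genes that are not members, 9 had a row, Pecam1 had none, and none was at 0 in every rat. Their summed normalised value ranged from 999 to 2184 in YNG, 1398 to 4497 in AV, 1265 to 1898 in AA and 1216 to 1670 in ADQ. The AV rat 3989 stood apart, with the highest AV sum also for markers of smooth muscle, meninges, astrocytes, oligodendrocytes, red cells and the CA1 field. The main calls on members, the series differences, the pairs of genes and the list counts that include the AV group are therefore also given without it. For the list counts, the series and the pairs of genes this was chosen after seeing the data. The covariate fits and the values of most other named genes are given with that rat only.

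Cldn5 encodes claudin-5, the main claudin of the brain endothelial tight junction. Its normalised value ranged from 424 to 1881 (median 884) in YNG, from 707 to 3276 (median 1428) in AV, from 736 to 1611 (median 983) in AA and from 649 to 1172 (median 953) in ADQ. The groups overlapped: 3 of 12 AV rats (3989, 4568 and 4009) lay above every YNG rat, no ADQ rat lay above the AV median, and the AV rats 4011 and 3890 lay below the YNG median. The ADQ rats were the most alike, with a mean of 928 ± 145 (SD, n = 11), while the mean was 989 ± 469 (SD, n = 10) for YNG, 1545 ± 741 (SD, n = 12) for AV and 1093 ± 251 (SD, n = 11) for AA. Ocln encodes occludin, a membrane protein of the junction strands. Ocln ranged from 55.8 to 141 (median 83.6) in YNG, from 61.0 to 230 (median 105) in AV, from 55.2 to 134 (median 86.1) in AA and from 73.3 to 136 (median 104) in ADQ. Most rats of all groups shared 1 range, and 2 AV rats of series a (3989 and 3999) exceeded every YNG rat. Tjp1 encodes ZO-1, which ties the junction to the actin cytoskeleton and is made by many cell types, not by endothelial cells alone. The value of Tjp1 ranged from 1399 to 2198.5 (median 1803) in YNG, from 1404 to 2845 (median 2085) in AV, from 1672 to 2479 (median 1981) in AA and from 1802 to 2776 (median 1986) in ADQ. Of the AV rats, 5 exceeded every YNG rat, all of them in series a, while the AV rats of series b all lay within the YNG range. The 2 rows of Tjp1 and of Ocln took changing shares of the sum, the larger row of Tjp1 holding between 41.8% and 76.6% of it over the 4 groups, so the sum over rows was used.

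Cdh5 encodes VE-cadherin, the cadherin of endothelial adherens junctions. Its value ranged from 73.4 to 173 (median 94.9) in YNG, from 73.8 to 445 (median 176) in AV, from 120.4 to 223 (median 149) in AA and from 109 to 172 (median 139) in ADQ. Of the AV rats, 7 of 12 exceeded every YNG rat, with 3989, 3999, 4568 and 4009 at the top (307 to 445) and 4567 at the bottom (73.8), next to the lowest YNG rat. All 11 AA rats and all 11 ADQ rats lay above the YNG median, with none of the ADQ rats above the AV median. That YNG median lay within the range of series a, since Cdh5 in YNG split by series without overlap. It ran from 73.4 to 97.0 in V1 to V6 and from 136.9 to 172.6 in V9 to V12. Flt1 encodes VEGF receptor 1, which binds VEGF-A and placental growth factor. Values of Flt1 ranged from 245 to 1297 (median 377) in YNG, from 624.7 to 2910.1 (median 822) in AV, from 524 to 1191 (median 708) in AA and from 573 to 775 (median 657) in ADQ. The YNG rats fell apart by series, V1 to V6 lying between 245 and 432 and V9 to V12 between 606 and 1297, with no overlap. Every older rat lay above the YNG median. The rat 3989 held the highest Flt1 value of all rats, and the next was the AV rat 4568 at 1329.

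Slco1a4 encodes an organic anion transporting polypeptide of the brain endothelium. Its value ranged from 276 to 772 (median 399.7) in YNG, from 395 to 1189 (median 502) in AV, from 341 to 556 (median 429) in AA and from 351 to 600.2 (median 443) in ADQ. Only the AV rat 3989 exceeded the highest YNG rat, V12, and 3 AA and 4 ADQ rats lay below every AV rat. Slc2a1 encodes the glucose transporter GLUT1, which supplies the brain across the endothelium and is also made by astrocytes. Its value ranged from 1084 to 1827 (median 1409) in YNG, from 1181 to 4734 (median 2047) in AV, from 1595 to 2461 (median 1834) in AA and from 1292 to 2101 (median 1791) in ADQ. Of the older rats, 9 of 12 AV, 6 of 11 AA and 5 of 11 ADQ rats exceeded every YNG rat, and the AV rat 4567 was among the lowest of all. Mfsd2a encodes a sodium-dependent carrier of lysophospholipids with docosahexaenoic acid that also restrains vesicle transport in brain endothelium. Its value ranged from 287 to 452 (median 367) in YNG, from 327 to 589.6 (median 395) in AV, from 296 to 465 (median 369) in AA and from 305 to 502 (median 364) in ADQ. The 4 groups overlapped almost fully, with 3 AV, 2 AA and 1 ADQ rats above every YNG rat.

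**Figure D1:**
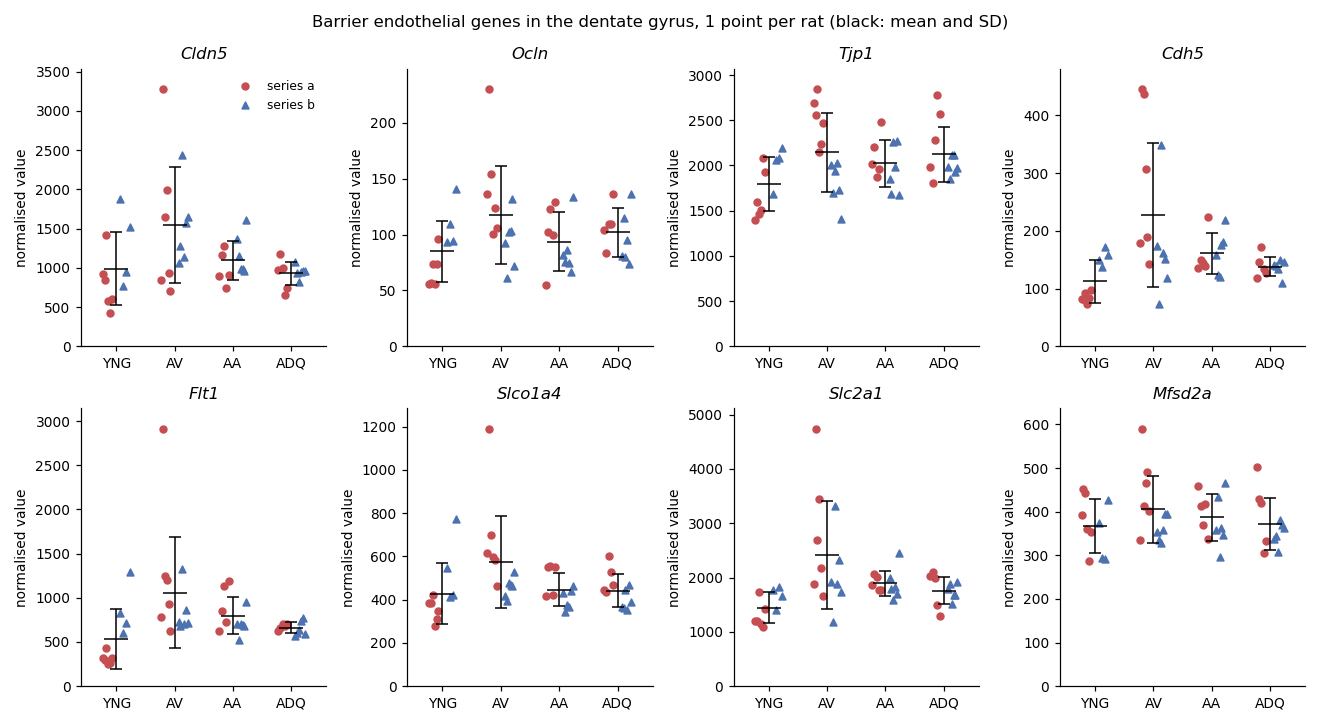
Normalised value of each gene (vertical axis, from 0) in each rat, by group, with series a as red circles, series b as blue triangles, and the mean and SD in black. The AV rat 3989 is the top AV point in every panel except Tjp1, and in Cdh5 and Flt1 the YNG rats of series a lie below all YNG rats of series b.

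Compared with YNG, the AV rats had higher expression of 7 of the 8 genes, across all 3 roles. Taken back from the log2 scale, the increase was 2.08-fold for Flt1, 1.84-fold for Cdh5, 1.59-fold for Slc2a1, 1.57-fold for Cldn5, 1.36-fold for Ocln, 1.33-fold for Slco1a4 and 1.18-fold for Tjp1. Mfsd2a was 1.10-fold apart and did not pass (p = 0.175). The test was limma on log2(value + 1) over 15598 genes and 44 rats, two-sided, called at an unadjusted p below 0.05 as in the methods of the study, and 10.6% of all genes were called higher in the same comparison. On the log2 scale the differences were 1.06 ± 0.22 (SE) for Flt1 (p = 1.74e-05), 0.88 ± 0.20 for Cdh5 (p = 9.06e-05), 0.67 ± 0.14 for Slc2a1 (p = 2.52e-05) and 0.65 ± 0.21 for Cldn5 (p = 0.00303). They were smaller for Ocln, 0.45 ± 0.18 (p = 0.0149), Slco1a4, 0.42 ± 0.14 (p = 0.00542), and Tjp1, 0.24 ± 0.10 (p = 0.0189). After Benjamini-Hochberg adjustment over all genes in limma, Flt1 (adjusted p = 0.00504), Slc2a1 (adjusted p = 0.00606) and Cdh5 (adjusted p = 0.0123) remained below 0.05, as did 1.81% of all genes in this direction. The median difference of the 8 genes was 0.55 on the log2 scale, against -0.0017 over all genes tested. In a permutation test of single genes with 100000 resamples, Tjp1 had p = 0.0552 and the other 6 called genes had p between 0.00221 and 0.0394. Without rat 3989 all 7 genes were still called, with Flt1 at 0.91 and Ocln at 0.35. With only the row of highest mean for each gene, Ocln (0.35, p = 0.28) and Tjp1 (0.11, p = 0.413) were not called. The higher share among all called genes was 49.6%, and it became 81.1% when values were scaled to the total per rat, which moved the median of all genes to 0.10.

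The increase in AV was called in series a for 7 genes and in series b, which held 4 YNG rats, for none. A lack of calls in series b does not show that there was no difference. For Cldn5 and Slc2a1 the difference between the series did not pass adjustment. Within series a, AV exceeded YNG by 1.86 ± 0.25 (log2, SE) for Flt1, 1.59 ± 0.23 for Cdh5, 1.01 ± 0.19 for Slc2a1, 1.01 ± 0.21 for Ocln, 0.91 ± 0.17 for Slco1a4, 0.87 ± 0.31 for Cldn5 and 0.59 ± 0.12 for Tjp1. All 7 were called there, with limma p between 1.02e-07 and 0.00941, against 15.2% of all genes. Without rat 3989 the same 7 were called in series a, from 0.58 ± 0.13 for Tjp1 and 0.61 ± 0.27 for Cldn5 to 1.59 ± 0.18 for Flt1, against 16.6% of all genes. Within series b none of the 8 genes was called higher or lower, by limma at an unadjusted p, against 3.77% of all genes called higher and 2.54% called lower. There Cldn5 differed by 0.29 ± 0.22 and Slc2a1 by 0.25 ± 0.18, whereas Flt1 (-0.03 ± 0.19), Cdh5 (-0.01 ± 0.26), Tjp1 (-0.16 ± 0.11), Slco1a4 (-0.19 ± 0.14) and Ocln (-0.25 ± 0.22) had the opposite sign without passing. The AV against YNG difference itself differed between the series for 6 genes at an unadjusted p below 0.05, beside 21.8% of all genes, and for 5 after adjustment, beside 4.47%. The series difference of this contrast was 1.89 ± 0.33 for Flt1 (adjusted p = 0.00144), 1.60 ± 0.35 for Cdh5 (adjusted p = 0.00914), 1.26 ± 0.31 for Ocln (adjusted p = 0.0186), 1.10 ± 0.23 for Slco1a4 (adjusted p = 0.00598) and 0.75 ± 0.16 for Tjp1 (adjusted p = 0.00878), all from the limma interaction of group and series. It was 0.77 ± 0.28 for Slc2a1 (adjusted p = 0.0944), 0.58 ± 0.41 for Cldn5 (p = 0.164) and 0.16 ± 0.19 for Mfsd2a (p = 0.42). Without rat 3989 the series difference of Flt1 was 1.62 ± 0.27, the same 6 genes were below the unadjusted threshold, beside 25.5% of all genes, and the same 5 after adjustment in limma, beside 8.28%.

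**Figure D2:**
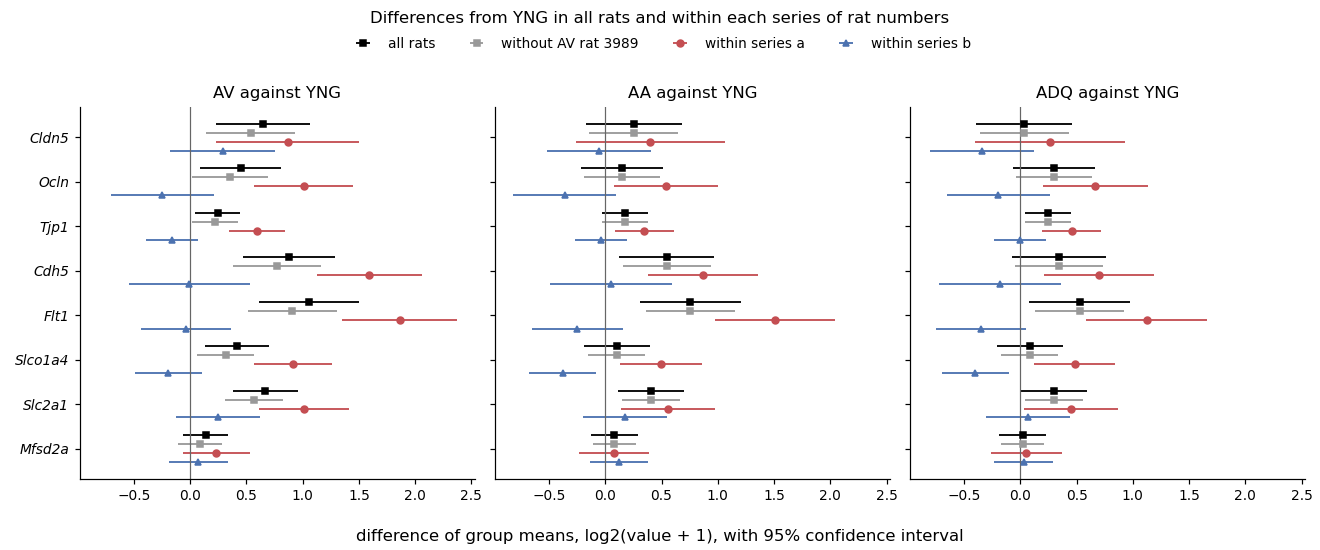
Difference from YNG of AV, AA and ADQ (horizontal axis, log2(value + 1), with 95% confidence interval) for all rats, for all rats but the AV rat 3989, and within each series. In AV against YNG, the intervals of series a lie above 0 for 7 genes and those of series b include 0 for all 8.

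The series were therefore compared within each group. Among YNG rats, series b exceeded series a by 1.42 ± 0.25 (log2, SE) for Flt1 (adjusted p = 0.0028), 0.85 ± 0.26 for Cdh5, 0.70 ± 0.30 for Cldn5, 0.68 ± 0.23 for Ocln, 0.57 ± 0.17 for Slco1a4 and 0.28 ± 0.12 for Tjp1. These 6 genes were called at an unadjusted limma p below 0.05, beside 5.82% of all genes called higher and 5.64% lower, and only Flt1 passed adjustment. Among AV rats series b was lower than series a for 7 genes. The differences there were -0.75 ± 0.24 for Cdh5, -0.58 ± 0.21 for Ocln, -0.54 ± 0.15 for Slco1a4, -0.47 ± 0.11 for Tjp1, -0.47 ± 0.22 for Flt1, -0.40 ± 0.18 for Slc2a1 and -0.30 ± 0.13 for Mfsd2a. All 7 were called, beside 8.29% of all genes, and Tjp1 (adjusted p = 0.00955) and Slco1a4 (adjusted p = 0.0372) passed adjustment in limma. Cldn5 was not lower in series b of AV (0.12 ± 0.27). Without rat 3989 the calls on Flt1 (-0.20 ± 0.19), Slc2a1 (-0.22 ± 0.17) and Mfsd2a (-0.21 ± 0.13) were lost, and Cdh5 (-0.59 ± 0.24), Tjp1 (-0.46 ± 0.12), Ocln (-0.43 ± 0.21) and Slco1a4 (-0.37 ± 0.13) were still called, beside 7.76% of all genes. None of the 8 genes differed between the series among AA rats or among ADQ rats at an unadjusted limma p below 0.05, beside 7.32% and 5.75% of all genes called higher and lower in AA and 4.86% and 4.14% in ADQ. The mean log2 value of CA1 markers in YNG ran from 8.28 to 10.43 in series a and from 7.21 to 10.36 in series b. In AV it ran from 8.32 to 11.28 and from 6.61 to 10.84. It ran from 9.27 to 10.96 and from 6.69 to 11.87 in AA. In ADQ it ran from 8.14 to 10.08 and from 6.68 to 9.78. Whether the series differ in dissection, sequencing run or litter cannot be told from the labels, which give none of them. The part of these in the differences was not tested.

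**Figure D3:**
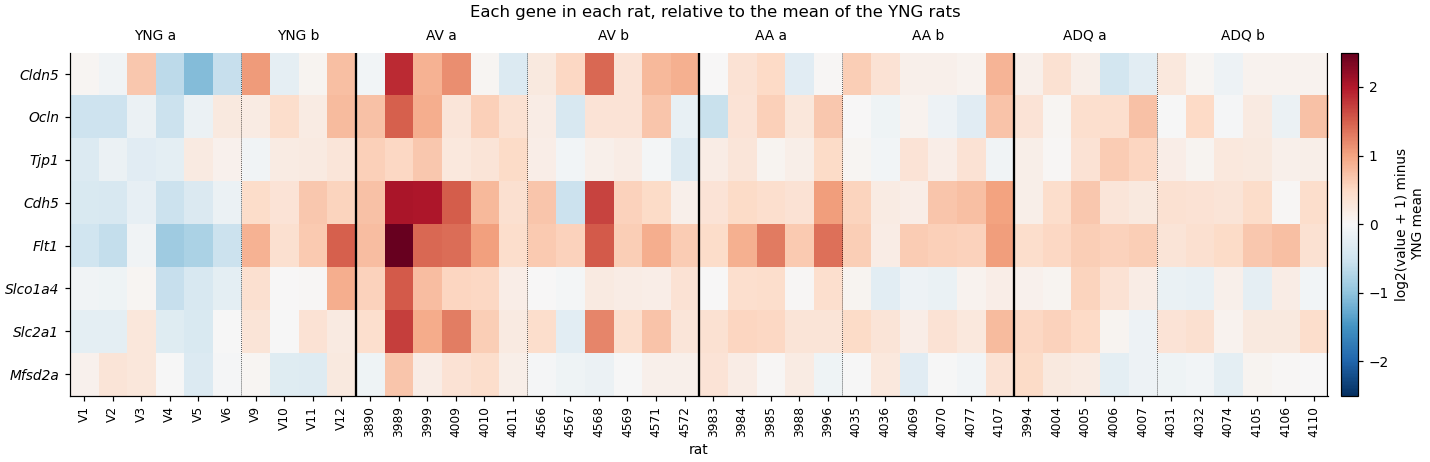
Each gene (rows) in each rat (columns, by group and series) as log2(value + 1) minus the YNG mean, with red above and blue below that mean. The YNG rats V4 and V5 lie below the YNG mean for 8 and 7 genes, the AV rats 3989, 3999 and 4009 are red for all 8 and the AV rat 4568 for all but Mfsd2a.

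Against the same YNG rats, the AA group had 3 genes higher and none lower, and 12.6% of all genes were called higher and 14.1% lower. Flt1 was 1.69-fold higher (log2 0.76 ± 0.22, limma p = 0.00152, adjusted p = 0.0479), Cdh5 1.46-fold (0.55 ± 0.21, p = 0.0119) and Slc2a1 1.32-fold (0.41 ± 0.15, p = 0.00754), and the adjusted p of Flt1 compares with 1.55% of all genes passing adjustment in this direction. The tight junction genes did not pass, with 0.25 ± 0.21 for Cldn5, 0.18 ± 0.10 for Tjp1 and 0.15 ± 0.18 for Ocln, nor did Slco1a4 (0.10 ± 0.15) and Mfsd2a (0.08 ± 0.10). The median of the 8 genes was 0.22 against 0.0007 over all genes. Tjp1 was also called without the YNG rat V12 (0.21, p = 0.0489). Scaling to the total per rat moved the higher share of all called genes from 47.2% to 85.3% and the median of all genes to 0.15. Within series a 6 genes were called higher, beside 12.5% of all genes, with Flt1 at 1.51 ± 0.26. Within series b none was called higher, beside 7.19% of all genes, and Flt1 stood at -0.25 ± 0.19, while Slco1a4 was called lower (-0.38 ± 0.14, p = 0.0156), beside 5.17%. The group difference itself differed between the series for Flt1 (1.75 ± 0.34, adjusted p = 0.00391) and Slco1a4 (0.87 ± 0.23, adjusted p = 0.0414) after adjustment in limma, as it did for 1.80% of all genes. At an unadjusted p it differed for 5 of the 8 genes, beside 17.3%.

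In ADQ, Tjp1 was 1.19-fold higher than in YNG (log2 0.25 ± 0.10, limma p = 0.0199), Flt1 1.44-fold (0.53 ± 0.22, p = 0.0236) and Slc2a1 1.23-fold (0.30 ± 0.15, p = 0.0467). These 3 genes compare with 13.5% of all genes called higher, none of the 3 passed adjustment, as 3.12% of all genes did, and no member was called lower, beside 14.6%. Cldn5 stood at 0.03 ± 0.21, Mfsd2a at 0.02 ± 0.10 and Slco1a4 at 0.08 ± 0.15, and Ocln at 0.30 ± 0.18 and Cdh5 at 0.34 ± 0.21 did not pass either. The median of the 8 genes was 0.27 against 0.0057 over all genes. The calls were close to the threshold. Slc2a1 was lost on leaving out any of 14 of the 21 rats (V1, V2, V4, V5, V6, V10, 3994, 4004, 4005, 4031, 4032, 4105, 4106 and 4110, p between 0.0502 and 0.0945), Flt1 without V2 (p = 0.0517), V4 (p = 0.0644) or V5 (p = 0.0599), and Tjp1 without V1 (p = 0.05), so that 1 call was left without V1, V2, V4 or V5, while Ocln was added without V12 (0.38, p = 0.0381). With the row of highest mean only, Tjp1 was not called (0.11, p = 0.42). Scaling to the total per rat moved the higher share of all called genes from 48.0% to 82.6%, and the permutation test also called Cdh5 (p = 0.0342). Within series a 6 genes were called higher, beside 12.3% of all genes, and within series b none was, beside 4.33%, while Slco1a4 was called lower there (-0.40 ± 0.14, p = 0.0114), beside 2.57%. The difference varied with the series for 5 genes at an unadjusted limma p, beside 8.89% of all genes, and for none after adjustment, beside 0.0513%.

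Next, the treated older rats were compared with the AV rats of the same age, which entered both of these comparisons and the one with YNG. ADQ rats had lower expression of 5 of the 8 genes than AV rats, namely Cldn5, Cdh5, Flt1, Slc2a1 and Slco1a4, whereas 5.90% of all genes were called lower. Cldn5 reached 0.65 times the AV level, with a log2 difference of -0.61 ± 0.20 (limma p = 0.00385). Cdh5 (-0.53 ± 0.20, p = 0.0102) and Flt1 (-0.53 ± 0.21, p = 0.0172) each reached 0.69 times, Slc2a1 0.77 times (-0.37 ± 0.14, p = 0.0105) and Slco1a4 0.79 times (-0.33 ± 0.14, p = 0.0212). Ocln (-0.15 ± 0.17), Mfsd2a (-0.12 ± 0.10) and Tjp1 (0.00 ± 0.10) did not pass. No gene of the 15598, member or not, passed the Benjamini-Hochberg adjustment of limma in this comparison, and the lowest adjusted p among members was 0.284 for Cldn5. The median difference of the 8 genes was -0.35, against 0.0081 over all genes. Without rat 3989, Flt1 (-0.38, p = 0.0534) and Slco1a4 (-0.23, p = 0.0663) were lost and Cldn5 (-0.50), Cdh5 (-0.43) and Slc2a1 (-0.27) were still called. Within series a 4 genes were called lower, beside 3.85% of all genes, with Cdh5 at -0.89 ± 0.24, Flt1 at -0.74 ± 0.26, Slc2a1 at -0.56 ± 0.20 and Slco1a4 at -0.43 ± 0.17. Without rat 3989, 3 of these were called in series a, Cdh5 (-0.73 ± 0.22), Flt1 (-0.46 ± 0.19) and Slc2a1 (-0.39 ± 0.17), beside 2.62%. Within series b, where the AV rats form a number run of their own, only Cldn5 was called (-0.63 ± 0.20, p = 0.00452), beside 4.75%. Cldn5 stood at -0.60 ± 0.32 in series a, where it did not pass (p = 0.0728), and the difference between the series was 0.03 ± 0.39. The difference varied with the series for 1 gene, Cdh5 (-0.72 ± 0.34, unadjusted limma p = 0.042), beside 4.03% of all genes, and without rat 3989 it did so for none by limma at an unadjusted p, beside 7.57% (Cdh5 -0.56 ± 0.33, p = 0.101). With the mean log2 value of 4 choroid plexus markers as a covariate, Cldn5 (-0.46 ± 0.21, p = 0.0312) and Cdh5 (-0.42 ± 0.21, p = 0.0484) were still called lower in ADQ, beside 3.94% of all genes, and Flt1 (-0.38, p = 0.0912), Slco1a4 (-0.26, p = 0.0796) and Slc2a1 (-0.25, p = 0.0826) were lost.

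In AA against AV, 1 gene was called lower, Slco1a4, which reached 0.80 times the AV level (log2 -0.32 ± 0.14, limma p = 0.0281), and 3.10% of all genes were called lower. Cldn5 (-0.39 ± 0.20, p = 0.0572), Cdh5 (-0.33 ± 0.20), Ocln (-0.30 ± 0.17), Flt1 (-0.30 ± 0.21) and Slc2a1 (-0.26 ± 0.14, p = 0.0662) had the same sign without passing. Tjp1 stood at -0.07 ± 0.10 and Mfsd2a at -0.06 ± 0.10. The median of the 8 genes was -0.30 against 0.0009 over all genes, and no gene of the table passed adjustment. The call on Slco1a4 was lost without the AV rats 3989 (-0.21, p = 0.0876) or 3999 (-0.28, p = 0.0516) or the AA rat 4036 (-0.28, p = 0.0563), while without any of 9 other rats (3890, 4010, 4011, 4566, 4567, 4569, 4572, 4035 and 4107) between 2 and 4 genes were called. Within series a 4 genes were called lower, beside 2.29% of all genes, with Cdh5 at -0.72 ± 0.24, Ocln at -0.47 ± 0.22, Slc2a1 at -0.45 ± 0.20 and Slco1a4 at -0.42 ± 0.18. Without rat 3989, 1 of these was called in series a, Cdh5 (-0.57 ± 0.22, p = 0.0177), beside 1.60%. Within series b none was, beside 2.61%. The difference varied with the series for Tjp1 and Cdh5 at an unadjusted p, beside 4.71%, and without rat 3989 for Tjp1 alone (p = 0.0362), beside 5.37%. With the choroid plexus score as a covariate, Slco1a4 (-0.27 ± 0.14, p = 0.063) was no longer called, nor was any other of the 8 genes by limma at an unadjusted p, beside 2.37% of all genes called lower. Between the treatments, AA against ADQ, none of the 8 genes was called by limma at an unadjusted p, beside 2.13% of all genes called higher and 2.40% lower. The 95% interval of the difference ran from -0.21 to 0.67 for Flt1, from -0.19 to 0.64 for Cldn5, from -0.21 to 0.61 for Cdh5 and from -0.50 to 0.21 for Ocln. For Slc2a1 it ran from -0.18 to 0.39, for Slco1a4 from -0.27 to 0.30, for Tjp1 from -0.27 to 0.13 and for Mfsd2a from -0.14 to 0.26.

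**Figure D4:**
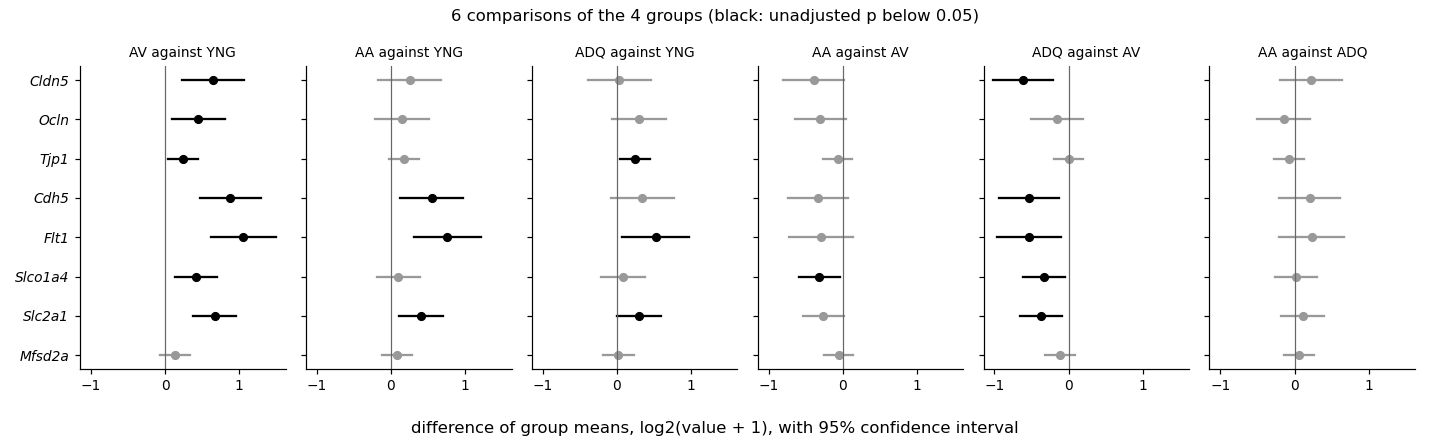
Difference of group means (horizontal axis, log2(value + 1)) with its 95% confidence interval for each gene in the 6 comparisons, black where the unadjusted limma p is below 0.05 and grey elsewhere. Called differences lie above 0 in the comparisons with YNG (7, 3 and 3 genes) and below 0 in those with AV (1 and 5 genes), and AA against ADQ has none.

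Other endothelial genes moved with the members over both series pooled, and the counts of markers were not split by series. Of 9 endothelial markers tested, 8 were higher in AV than in YNG (median 0.54 on the log2 scale), beside 10.6% of all genes. Among them were Kdr, the main VEGF receptor (1.28 ± 0.29, limma adjusted p = 0.0108), and Icam2 (1.10 ± 0.19, adjusted p = 0.0007). In series a the mean log2 value of the 9 markers ran from 6.47 to 6.91 in YNG and from 6.96 to 8.73 in AV. In series b it ran from 6.81 to 7.52 in YNG and from 6.93 to 7.74 in AV, so the groups overlapped there. In ADQ 6 of the 9 were lower than in AV (median -0.50), beside 5.90% of all genes, and in AA also 6 (median -0.35), beside 3.10%. Without rat 3989 these counts were 8 in AV against YNG (Kdr 1.04 ± 0.24, limma adjusted p = 0.0163), 6 in ADQ against AV and none in AA against AV, by limma at an unadjusted p, where 9.83%, 4.14% and 1.93% of all genes were called in the same directions. When the mean log2 value of these markers was entered as a covariate, an alternative chosen after seeing the data, none of the 8 barrier genes was called by limma at an unadjusted p in AV against YNG (Flt1 0.16 ± 0.14, Cldn5 -0.09 ± 0.17, beside 5.58% of all genes called higher), in ADQ against AV (beside 1.30% called lower) or in AA against AV (beside 1.42%). In AA against YNG Flt1 was still called (0.33 ± 0.12, p = 0.0117, beside 11.8%), and in ADQ against YNG so were Flt1 (0.31 ± 0.12, p = 0.0131) and Tjp1 (0.22 ± 0.10, p = 0.0376), beside 14.3%. All 9 of these markers also stand in the lists of related genes below, Esam among the junction genes and the others among the identity genes. The counts of those lists therefore repeat them in part. In AV against YNG, 4 of 5 oligodendrocyte, 3 of 8 pericyte, 3 of 7 astrocyte and 1 of 5 microglial markers were higher, 1 of 4 smooth muscle markers was higher, and none of 4 choroid plexus, 5 meningeal, 4 red cell or 4 CA1 markers was called. Of the 4 granule cell markers 1 was lower, and of 4 CA3 and mossy cell markers 1 was higher. These counts stand beside 10.6% of all genes called higher and 10.7% lower, from which a count of 1 cannot be set apart. Without rat 3989, 2 pericyte and 2 astrocyte markers were higher, beside 9.83% of all genes, and the counts of the other cell types did not change. In ADQ against AV, 3 oligodendrocyte, 3 pericyte, 4 microglial, 4 red cell, 2 choroid plexus and 1 astrocyte marker were lower, the last being Gfap (-0.57 ± 0.14, limma p = 0.000225, adjusted p = 0.134). Of the CA3 and mossy cell markers, Csf2rb was lower (-0.58 ± 0.19) and Cpne4 higher (0.58 ± 0.28), and no smooth muscle, meningeal, granule cell or CA1 marker was called. In ADQ against AV 5.90% of all genes were called lower and 533 of 15598 higher. In AA against AV, 2 pericyte (Kcnj8 and Abcc9), 2 microglial (Cx3cr1 and Csf1r), 1 astrocyte (Gfap, -0.49 ± 0.14), 1 red cell (Hba-a2) and 1 meningeal marker (Slc6a13, -0.59 ± 0.20) were lower, Calb2 of the CA3 and mossy cell list was higher (0.55 ± 0.24), and no oligodendrocyte, smooth muscle, choroid plexus, granule cell or CA1 marker was called. In AA against AV 3.10% of all genes were called lower and 219 of 15598 higher. A count of 1 in such a list cannot be set apart from these shares in either comparison. Without rat 3989, 1 oligodendrocyte, 3 pericyte, 3 microglial, 1 choroid plexus, 1 astrocyte and no red cell markers were lower in ADQ than in AV by limma at an unadjusted p, beside 4.14% of all genes. In AA against AV without that rat, 1 pericyte, 2 microglial, 1 astrocyte, 1 meningeal and no red cell markers were lower, beside 1.93%. There 1 meningeal marker and 1 of the CA3 and mossy cell list were higher. Red cell transcripts summed to between 2365 and 26487 in YNG, 3679 and 90354 in AV, 3769 and 26736 in AA and 3318 and 13916 in ADQ, the highest sum belonging to rat 3989. The highest sum of choroid plexus transcripts was 129 for YNG, 1395 for AV, 984 for AA and 365 for ADQ. The endothelial score is made of genes of endothelial cells, as are most members. The fit with that score therefore cannot tell the number of endothelial cells from RNA per cell. The part of these cell types in the differences of the barrier genes was not tested.

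Genes of related functions were counted in 6 lists that exclude the members. The counts pool both series and were not split by series. Over the 67 related genes tested, AV exceeded YNG for 37 and lay below it for 3, and ADQ lay below AV for 30 and above it for none, beside 10.6% of all genes called higher and 10.7% lower in the first comparison and 5.90% lower in the second. AA lay below AV for 16, beside 3.10%. Without rat 3989, AV exceeded YNG for 33 and lay below it for 3, beside 9.83% and 10.9% of all genes, ADQ lay below AV for 20, beside 4.14%, and AA lay below AV for 3, beside 1.93%. Of 17 endothelial identity genes, which include receptors and transcription factors, 14 were higher in AV than in YNG (median 0.61) and 11 were lower in ADQ than in AV (median -0.55), which became 14 and 10 without rat 3989. Sox18, a transcription factor of endothelial development, rose from 68.2 ± 28.6 (SD, n = 10) in YNG to 148 ± 65.3 (SD, n = 12) in AV, and Icam2, an endothelial adhesion molecule, from 26.3 ± 8.37 to 60.3 ± 34.3. Without rat 3989 the AV mean was 136 ± 49.9 (SD, n = 11) for Sox18 and 51.0 ± 12.6 for Icam2. Of 11 further junction genes, AV exceeded YNG for 6 and lay below it for 2, or for 6 and 1 without rat 3989. ADQ lay below AV for 6 of them, or for 3 without that rat. Lsr, the lipolysis-stimulated receptor of tricellular junctions, was higher than in YNG in AV (1.04 ± 0.17), AA (0.81 ± 0.18) and ADQ (0.57 ± 0.18), with limma adjusted p of 0.000432, 0.0217 and 0.0422. Esam, an endothelial adhesion molecule, was higher in AV (0.91 ± 0.19, adjusted p = 0.00495) and lower in ADQ than in AV (-0.61 ± 0.18, unadjusted p = 0.00196). The polarity gene Pard3 was lower than in YNG in all 3 older groups, by -0.26 ± 0.08 in AV (limma, p = 0.00164, not past adjustment) and by -0.27 ± 0.08 both in AA, with an adjusted p of 0.0478, and in ADQ, where it was 0.0316. The claudin Cldn12 was also lower in all 3, with adjustment in AA (-0.25 ± 0.07, adjusted p = 0.0463) and without it in AV (-0.15 ± 0.07, p = 0.0429, and p = 0.0756 without rat 3989) and ADQ (-0.17 ± 0.07, p = 0.0259).

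Of 15 further transporters, 7 were higher and none lower in AV than in YNG, or 6 and none without rat 3989. Slc6a6, the taurine transporter, had a mean of 392 ± 173 (SD, n = 10) in YNG, 585 ± 193 (SD, n = 12) in AV, 609 ± 135 (SD, n = 11) in AA and 567 ± 92.3 (SD, n = 11) in ADQ, and was called higher than in YNG in all 3 older groups. In ADQ against AV 4 transporters were lower, including Slco2b1 (-0.31 ± 0.09, p = 0.00202) and the amino acid carrier Slc38a5 (-0.60 ± 0.23, p = 0.0118), both by limma without adjustment, and 2 without rat 3989. Of 13 genes of the Wnt pathway that induces the barrier, AV exceeded YNG for 6 and lay below it for 1, or for 4 and 2 without rat 3989, and ADQ lay below AV for 4, or for 2 without that rat. Lef1, a transcription factor and target of that pathway, was higher by 0.99 ± 0.20 (adjusted p = 0.00483). Wnt7b, a neuronal and glial ligand, was lower than in YNG in all 3 older groups, in ADQ after limma adjustment (-0.57 ± 0.12, adjusted p = 0.00963) and without it in AV (-0.38 ± 0.12, p = 0.00245) and AA (-0.26 ± 0.12, p = 0.0342). Of 8 genes of vesicle transport and leakage, 4 were higher in AV than in YNG and 4 were lower in ADQ and in AA than in AV, and without rat 3989 these counts were 3, 3 and 0 by limma at an unadjusted p. Angpt2, which encodes angiopoietin-2, an antagonist of vessel stability, was higher (2.40 ± 0.56 in AV against YNG, adjusted p = 0.0124), and its normalised value in AV ranged from 7.14 to 1634 (median 30.1), against 4.51 to 20.2 in YNG. Without rat 3989, which held the highest value, the difference was 1.97 ± 0.48 (adjusted p = 0.0228) and the AV range ended at 487 (median 27.8). Of 3 leukocyte adhesion genes tested, none was called in AV against YNG, by limma at an unadjusted p, and 1, Icam1, was lower in ADQ than in AV (-0.38 ± 0.16, p = 0.0182, and -0.26, p = 0.0576 without rat 3989). Counts for AA against AV were 8 of 17 identity, 1 of 11 junction, 2 of 15 transporter, 1 of 13 Wnt, 4 of 8 vesicle and 0 of 3 adhesion genes lower, and none higher. A count of 1 in such a list cannot be set apart from the 3.10% of all genes, nor can 2 of 11 or 1 of 13 genes lower in AV than in YNG from the 10.7%. Without rat 3989, 2 identity genes and 1 Wnt gene were still called lower.

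The members also varied together from rat to rat. After the group means were removed, 21 of the 28 pairs of the 8 genes were correlated over 44 rats (Pearson, permutation within groups with 100000 resamples, two-sided, Benjamini-Hochberg adjusted over 28 pairs), and all 21 were positive. Without rat 3989, 19 pairs passed. The closest pair was Flt1 with Slco1a4 (r = 0.838, permutation p = 1e-05, the smallest these resamples allow, adjusted p = 4.67e-05, Spearman's rho = 0.75, p = 1e-05, adjusted p = 7e-05). It stood at r = 0.71 without the rats 3989 and V12, which lay farthest from the median, at 0.903 in series a and at 0.684 in series b. Cdh5 with Slc2a1 had r = 0.816 (permutation p = 1e-05, adjusted p = 4.67e-05, rho = 0.718, p = 1e-05, adjusted p = 7e-05), 0.717 without 3989 and 4567, 0.706 in series a and 0.881 in series b. Cldn5 with Slc2a1 had r = 0.737 (permutation p = 1e-05, adjusted p = 4.67e-05, rho = 0.766, p = 1e-05, adjusted p = 7e-05), 0.669 without 3989 and V5, 0.892 in series a and 0.61 in series b. Among the tight junction genes, the r of Tjp1 was 0.551 with Ocln (permutation p = 0.00025, adjusted p = 0.000636, rho = 0.496, p = 0.00136, adjusted p = 0.00346) but -0.253 with Cldn5 (permutation p = 0.156, adjusted p = 0.19, rho = -0.32, p = 0.0555, adjusted p = 0.074). Tjp1 with Ocln had 0.507 in series a and 0.063 in series b, and Tjp1 with Mfsd2a had -0.655 and -0.522 there. Within series a 16 pairs passed the same test and within series b 2 did, each over 22 rats. These counts take positive and negative r together. All genes of a rat share 1 library and its size factor, and differences between the series within a group remain in the deviations over 44 rats. No share of correlated pairs over all genes is given here, so whether the count is particular to the members was not tested.

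**Figure D5:**
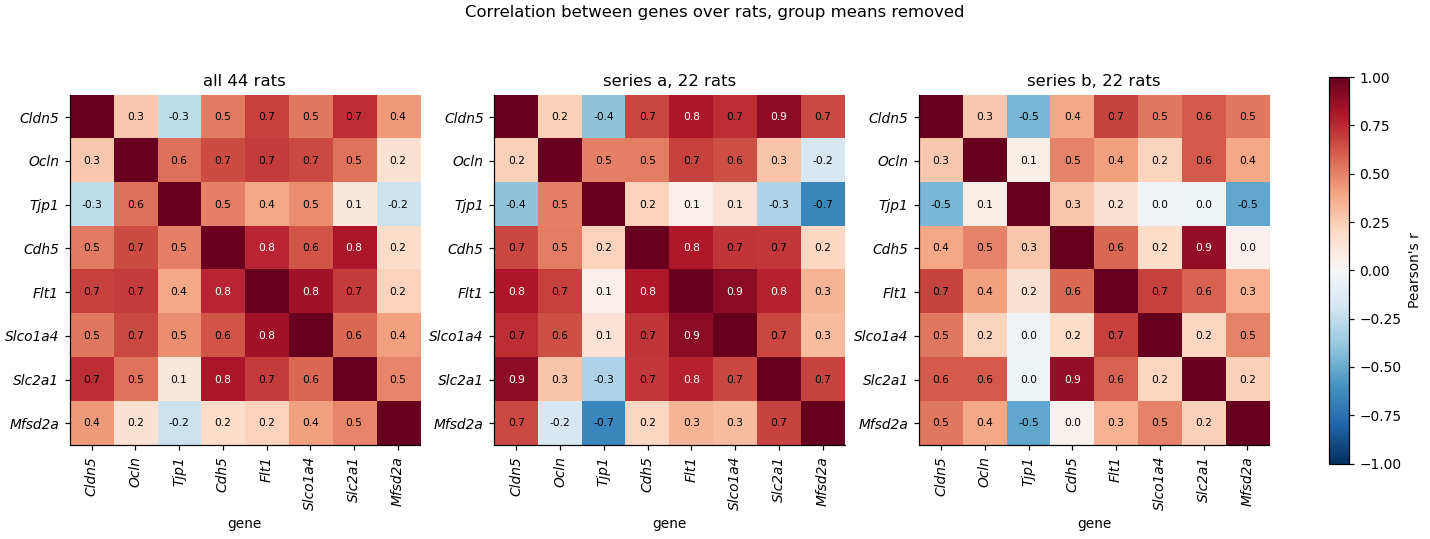
Pearson's r between genes over rats after removal of group means, for all 44 rats and for the 22 rats of each series (colour and printed value from -1 to 1). Flt1 with Slco1a4 (0.903 and 0.684) and Cdh5 with Slc2a1 (0.706 and 0.881) are positive in both series, and Tjp1 has negative values with Cldn5 and Mfsd2a in both series.

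Over the same deviations, the 3 genes most like each member were found among tested genes whose mean normalised value reached 20, as a description over 44 rats. For Flt1 these were Mmrn2 (r = 0.947), Adgrf5 (0.933) and Cyyr1 (0.906), and for Slco1a4 they were Erg (0.861), Cyyr1 (0.859) and Flt1 itself (0.838). For Cdh5 they were Fn1 (0.895), Podxl (0.888) and Abcc9 (0.85), for Slc2a1 Esam (0.864), Plat (0.858) and Vwa1 (0.857), and for Cldn5 Vwa1 (0.854), Srgn (0.839) and Tagln2 (0.822). Ocln was most like Utrn (0.796), Slfn5 (0.782) and Mylk (0.782), Tjp1 most like Tpr (0.871), Setd2 (0.847) and Arfgef1 (0.824), and Mfsd2a most like Slc3a2 (0.836), Cst3 (0.768) and Ifngr1 (0.765). Of these, Mmrn2, Erg, Podxl and Esam are known from endothelial cells, Abcc9 is one of the pericyte markers, whereas Tpr and Setd2 encode nuclear proteins made in most cells and Cst3 is an abundant secreted protease inhibitor.

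Rat by rat, the mean log2 value of the 8 genes was highest in the AV rat 3989 (10.35), which was among the 5 highest of all 44 rats for all 8 genes, followed by the AV rats 3999 (9.75), 4009 (9.63) and 4568 (9.58), which were so for 6, 5 and 4 genes. The lowest means belonged to the YNG rats V4 (8.31) and V5 (8.37), which were among the 5 lowest rats for 7 and 6 genes. Among treated rats the AA rat 4107 had the highest mean (9.39) and was the highest AA rat for 4 genes, yet the lowest for Tjp1. Of all 44 rats, 4107 also had the lowest mean log2 value of granule cell markers (9.17) and the highest of CA1 markers (11.87). The ADQ means of the 8 genes lay between 8.89 and 9.21, a narrower span than in AV (8.73 to 10.35) and YNG (8.31 to 9.44).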

How the data were processed

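The deposited table holds 1 signal value per transcript row and rat. Per the methods, the authors trimmed reads, aligned them to rn6 with STAR (version 2.5.3a in the submitters' notes), divided gene counts in Partek by the median ratio, and tested them with DESeq2. The unit of the deposited values is therefore a normalised signal that is not whole, so the depth in reads is unknown, no count test was run, and how reads were divided among the rows of a gene is not given in the sources used here. The 24694 rows were summed to 18347 gene identifiers. A gene was tested where its mean was at least 5 (15598 genes).

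Treatment groups, vehicle for YNG included, were read from the deposited attributes table by rat name. Testing used limma 3.58.1 (R 4.3.3) on log2(value + 1) with 1 fit of 4 groups and all 44 rats, moderated with a trend, checked on simulated data. Calls used an unadjusted two-sided p below 0.05, as in the methods, with Benjamini-Hochberg adjusted p beside it. A fold change on this scale understates that of low genes. Single genes were permuted with 100000 resamples (Python 3.11.15, scipy 1.17.1). Rats are separate animals, and nothing gives the litters. Rat-number series were compared through a group by series interaction and within each series. Named related genes were those with the 2 smallest p in a list in some comparison, genes behind small counts, and markers, and the text gives a selection of them. The members, lists and tests were chosen with earlier results of these data known. Alternatives covered the pseudocount, the filter, scaling, covariates, weights, rows and left-out rats.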

Additional observations from a re-analysis of the deposited data

Results flagged for a closer look

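In 19 cases the difference between groups itself differed between the 2 rat-number series, by the limma interaction of group and series at an unadjusted p below 0.05. All values are series a minus series b on the log2 scale, and several comparisons share the YNG or the AV rats. Those with YNG rest on the assumed joining of young to older rat numbers. For AV against YNG the values were 1.89 for Flt1, 1.60 for Cdh5, 1.26 for Ocln, 1.10 for Slco1a4, 0.77 for Slc2a1 and 0.75 for Tjp1. For AA against YNG they were 1.75 for Flt1, 0.90 for Ocln, 0.87 for Slco1a4, 0.82 for Cdh5 and 0.39 for Tjp1. For ADQ against YNG they were 1.47 for Flt1, 0.88 for Slco1a4, 0.88 for Cdh5, 0.86 for Ocln and 0.46 for Tjp1. In the comparisons with AV, Cdh5 (-0.78) and Tjp1 (-0.36) stood out for AA and Cdh5 (-0.72) for ADQ. Within series b the AV rats form a number run of their own, so that in the comparisons of AA and ADQ with AV the series and that run cannot be told apart, and without the AV rat 3989 Cdh5 no longer stood out in either (p = 0.0682 and 0.101) by limma, a check chosen after seeing the data. After Benjamini-Hochberg adjustment over all genes in limma, 5 cases passed in AV against YNG and 2 in AA against YNG. In the YNG group, the only one of at most 10 rats, none of the 8 genes had a rat beyond Dixon's critical value, a test that flags about 1 in 20 groups by chance.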

How the results depend on the processing

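Within series b no gene was called in AV against YNG (0 in place of 7), 1 was called in each of AA and ADQ against YNG (Slco1a4, lower), 0 in AA against AV and 1 in ADQ against AV. The sign turned there in AV against YNG for Ocln (-0.25), Tjp1 (-0.16), Cdh5 (-0.006), Flt1 (-0.034) and Slco1a4 (-0.19), in AA against YNG for Flt1 (-0.25), and in ADQ against YNG for Tjp1 (-0.001) and Flt1 (-0.35). In series b the number run of the AV rats cannot be told apart from their treatment. Within series a 6 genes were called in AA and in ADQ against YNG and 4 in AA against AV, and without rat 3989, chosen after seeing the data, 7 in AV against YNG, 6 in AA and in ADQ against YNG, 1 in AA against AV and 3 in ADQ against AV. With the endothelial marker score as a covariate, chosen after seeing the data, the counts were 0 for AV against YNG, 1 for AA against YNG, 0 for AA against AV and 0 for ADQ against AV. The sign then turned in AV against YNG for Cldn5 (-0.088), Ocln (-0.06) and Slco1a4 (-0.13), and in ADQ against AV for Cdh5 (0.046), Flt1 (0.15), Slco1a4 (0.081) and Slc2a1 (0.044). The cause was not tested.

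Scaling to the total per rat gave 6 calls in AA against YNG and 5 in ADQ against YNG, all higher. Of the 15598 genes, 4412 and 4315 were called higher there, in place of 1959 and 2104. The same scaling gave 0 in AA against AV, beside 314 of all genes called lower in place of 484, and the higher share of all called genes moved there from 31.2% to 52.6%. That share moved from 36.7% to 47.8% in ADQ against AV and from 47.0% to 61.8% in AA against ADQ, and with upper quartile scaling from 49.6% to 61.0% in AV against YNG. Array weights gave 5 calls in ADQ against YNG, 4 in AA against AV and 1 in AA against ADQ (Ocln). With these weights 3979 of all genes were called higher in ADQ against YNG, in place of 2104. In AA against AV 620 were called lower, in place of 484, and in AA against ADQ 815, in place of 375. The pair of groups alone gave 1 in AA against ADQ (Flt1), beside 397 of all genes called higher in place of 332. Series as a covariate gave 2 in AA against AV, and the choroid plexus score as a covariate gave 0 in AA against AV and 2 in ADQ against AV. Leaving out 1 rat at a time gave 7 to 7 calls in AV against YNG, 3 to 4 in AA against YNG, 1 to 4 in ADQ against YNG, 0 to 4 in AA against AV and 3 to 5 in ADQ against AV. Of the 28 pairs of genes, 2 were correlated within series b in place of 21, and 19 without rat 3989. The other pseudocounts, filters, quantile normalisation and the robust option changed no count of called genes by over 1.5 times. No paired analysis was possible because rat numbers are not shared between groups. The precision rests on 10 to 12 rats per group, since the depth in reads is unknown.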
